A study of Homo sapiens with 8 samples.

Results

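The difference between the TGF-β responses of cells carrying wild-type Smad3 and cells carrying Smad3(RA/KP) was measured for 12983 genes outside the GTPase activators, of 13141 genes tested and 30017 gene symbols in the files. Within each replicate number, the log2 ratio of expression with to without TGF-β in wild-type Smad3 cells was subtracted from the same ratio in Smad3(RA/KP) cells. A difference above 0 means that the ratio was higher in Smad3(RA/KP) cells, and a difference below 0 that it was higher in wild-type Smad3 cells. Expression was in TPM (transcript abundance scaled per length and to an equal total in each library), and ratios were taken on log2(TPM + 1), which understates the change of weakly expressed genes. The 158 GTPase activators tested stayed in the model and are not described as results.

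The cells of all 8 libraries were A549-S3KO, made from the lung adenocarcinoma line A549 by removal of endogenous SMAD3, and every group therefore depends on introduced Smad3. A lentiviral cDNA supplied Smad3, as wild type or as Smad3(RA/KP), a form with the substitutions R104K and A105P. Both lie in the DNA-binding MH1 domain, in an exposed region, β4, that the study proposes as a possible surface for protein interaction. The 4 groups of 2 libraries were wild-type Smad3 cells without TGF-β, wild-type Smad3 cells after 8 h with TGF-β at 1 ng/ml, and Smad3(RA/KP) cells under the same 2 conditions, all plated on collagen when TGF-β was added. The infected cells had been cloned by limiting dilution and the sequenced clones were not named in the sources used here, so the mutation and a difference between clones cannot be told apart. The legend of the study calls the 2 replicates independent experiments, while the labels say only that they are replicates, so p-values measure the spread between these libraries, which may be technical. RNA was taken from whole cultures, in which fewer cells of a type and less RNA per cell cannot be told apart.

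TGF-β brings together type I and type II receptor kinases, which phosphorylate Smad2 and Smad3. These enter the nucleus with Smad4 and, together with other transcription factors, change the expression of genes for extracellular matrix, protease inhibitors, cytokines and feedback inhibitors. In lung epithelial cells this program accompanies epithelial-mesenchymal transition and increased motility.

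Mapped bases ranged from 1.15 to 1.81 Gb per library. The epithelial keratins KRT8, KRT18 and KRT7 had TPM values of 2533 to 6862, and EPCAM and CDH1 1.40 to 10.3 TPM. KRT19 was listed at 0 in all 8 libraries, as were PTPRC, PECAM1, ALB and other markers of blood, endothelial and liver cells. Of 21 markers of these and further cell types, only CD68, CD14 and MBP passed the filter on low values. SMAD3 itself had 137 to 187 TPM in the 8 libraries, a level that does not separate cDNA from gene. Both Smad3(RA/KP) libraries of replicate 2 departed from the others in a trend with GC content, in opposite directions. Across genes, the rank correlation (Spearman) between GC content and a library's deviation from the mean of the other 7 was −0.647 for the untreated and 0.495 for the treated one, and −0.141 to 0.375 for the other 6. The difference of ratios had a Spearman correlation with transcript GC content of 0.105 in replicate 1 and 0.676 in replicate 2, across 12381 genes that share these libraries. The median over all genes was 0.14 in replicate 1 and −0.19 in replicate 2. Values without the untreated Smad3(RA/KP) library of replicate 2, called the divergent library below because its trend was the stronger, and values with the GC trend of each library removed are given for genes and lists described by their role where they turn a sign or move a difference by over 1.5 times. The first still hold the treated library of that pair. "Above" and "below" for a single replicate are meant relative to these medians.

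Few genes differed in their response beyond the spread of the replicates. In limma, with the replicate number as a block, 3 of 13141 genes passed an adjusted p of 0.05 (0.0228%), 1 with a difference above 0 and 2 below 0. At an unadjusted p under 0.05 there were 338 genes above 0 (2.57%) and 226 below 0 (1.72%). Together these were 4.29% of the genes tested, the share to set beside the counts at that threshold in each list below. The 95% interval extended 0.77 to each side of the estimate at the median gene on the log2 scale. At such a gene a difference smaller than that did not reach an unadjusted p of 0.05 in limma. Passing after adjustment over all genes took a larger difference. For 5782 genes (44%) the whole interval lay between −1 and 1.

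The replicates seldom named the same genes. Over all genes the differences in replicates 1 and 2 had a Pearson correlation of −0.030, with an SD across genes of 0.58 and 0.74; genes are not independent replicates. Relative to the medians, 25.4% of genes lay above in both replicates and 25.4% below in both. Over the genes that responded to TGF-β the correlation was 0.23 for raised and 0.24 for lowered genes. These genes were chosen by their average response in both Smad3 forms, a contrast that does not use the difference between the forms. Its p-value does use the spread between replicates, so genes whose replicates agreed passed more readily. The higher correlation over these genes is therefore no separate result. In all, 817 genes (6.22%) passed as raised and 667 (5.08%) as lowered.

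**Figure D1:**
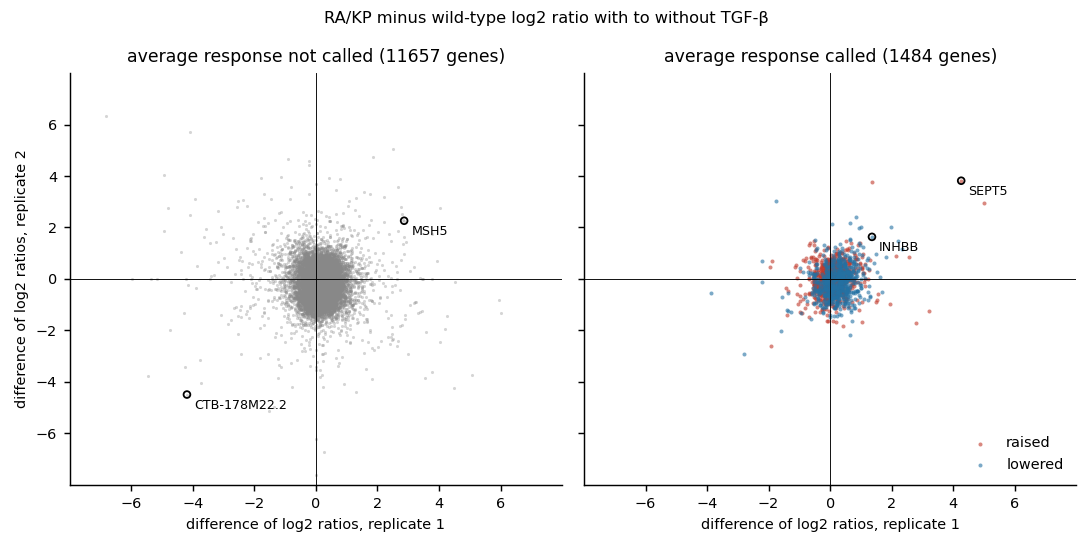
Difference of log2 ratios (Smad3(RA/KP) minus wild-type Smad3, log2 scale) in replicate 1 (horizontal axis) and replicate 2 (vertical axis), for genes whose average response did not pass (left, 11657 genes) and genes whose average response passed (right, 1484 genes, coloured by direction). The cloud on the left has no slope, and SEPT5, MSH5, CTB-178M22.2 and INHBB, circled, lie on the same side of 0 in both replicates.

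Outside the GTPase activators, 803 genes were raised on average, with a median log2 ratio of 0.92 in wild-type Smad3 and 0.98 in Smad3(RA/KP) cells, and 661 were lowered, with medians of −0.82 and −0.81. The median difference was 0.057 over the raised and 0.043 over the lowered genes, against −0.023 over all genes. Raised genes had median differences of 0.065 in replicate 1 and 0.022 in replicate 2; 227 (28.3%) lay above in both replicates and 187 (23.3%) below in both. Lowered genes had medians of 0.24 and −0.11, with 233 (35.2%) above in both and 153 (23.1%) below in both.

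With the GC trend of each library removed, the medians over raised and lowered genes had opposite signs. The median difference was then −0.10 in replicate 1 and −0.059 in replicate 2 over raised genes, and 0.11 and 0.13 over lowered genes, beside 0.0092 and −0.013 over all genes. With the GTPase activators included, below in both replicates were 287 of 787 raised genes (36.5%) and 97 of 631 lowered genes (15.4%), and above in both were 138 (17.5%) and 248 (39.3%), where all genes had 23.9% each way. With no GC correction, the medians over raised and lowered genes were −0.0018 and 0.15 without the divergent library, and 0.078 and 0.16 without the treated library of that pair. No test was made of these medians.

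Each of the 3 genes that passed was listed at 0 in both libraries of at least 1 group. SEPT5 (chromosome 22, 19714464 to 19723322, GRCh38), which encodes a septin of the filament-forming GTP-binding family, was listed at 12.1 and 14.6 TPM in untreated and 8.00 and 18.8 TPM in treated wild-type Smad3 cells, replicates 1 and 2. In Smad3(RA/KP) cells it was listed at 0 in both untreated libraries and at 12.1 and 16.9 TPM in both treated ones. Only the untreated Smad3(RA/KP) libraries were at 0, and the difference of ratios was 4.26 and 3.82 (limma adjusted p = 0.0257), a size that depends on the pseudocount. The readthrough record SEPT5-GP1BB, which overlaps SEPT5 on the same strand, held 7.36 and 6.92 TPM in these 2 libraries, against 1.30 to 4.61 TPM in the other 6. Summed over both records, the difference was 1.14 (interval 0.39 to 1.90, adjusted p = 0.874).

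LOC102724049 (chromosome 4, 107763135 to 107895547), a record that overlaps SGMS2 on the same strand, was listed at 0 in both untreated wild-type Smad3 libraries and both treated Smad3(RA/KP) libraries. It had 2.67 and 3.22 TPM in treated wild-type Smad3 cells and 2.61 and 2.90 TPM in Smad3(RA/KP) cells before treatment. The long noncoding RNA CTB-178M22.2 (chromosome 5, 168229583 to 168232372) was listed at 0 in the same 4 libraries, with 3.01 and 2.17 TPM in treated wild-type Smad3 and 3.55 and 6.14 TPM in untreated Smad3(RA/KP) cells. For both records the wild-type and mutant groups did not overlap in either condition, in opposite order. An exact 0 in values without read counts can be a failed estimate, and KRT19 was at 0 throughout. The differences printed for these 3 genes depend on the pseudocount and are neither fold changes nor bounds. Without the divergent library they were 3.73 for SEPT5, −3.86 for LOC102724049 and −3.96 for CTB-178M22.2, and none of the 3 passed. Among genes tested, 99 were listed at 0 in both libraries of at least 1 group and above 0 in both of another. Of these, 37 had an unadjusted p under 0.05, where 4.29% of all genes tested did. The 99 were picked by the same values that the test uses, so their count is no separate result.

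MSH5 (chromosome 6, 31739948 to 31762678), a MutS homologue of meiotic recombination, came next. The 8 records of this symbol summed to 13.1 and 14.8 TPM in untreated and 6.82 and 7.33 TPM in treated wild-type Smad3 cells. In Smad3(RA/KP) cells it went from 2.68 to 13.9 and from 3.72 to 11 TPM. The ratios ran in opposite directions in both replicates, and the difference of 2.56 (interval 1.81 to 3.32) did not pass (limma adjusted p = 0.103). The overlapping readthrough record MSH5-SAPCD1 was highest where MSH5 was lowest, at 13 and 13.2 TPM in Smad3(RA/KP) cells before treatment, where the other 6 libraries had 3.10 to 6.97 TPM, and the sum of both had a difference of 1.00 (adjusted p = 0.874).

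Among ligands and their activators, 13 of 18 listed genes were tested and none passed for the difference. At an unadjusted p under 0.05 there were 2 (15.4%), against 4.29% of all genes. INHBB, which encodes the βB subunit of activin and inhibin, had the largest difference of the 13. INHBB (chromosome 2, 120346143 to 120351807) fell in both forms: in wild-type Smad3 cells from 35.3 to 4.69 TPM in replicate 1 and from 13.2 to 0.714 TPM in replicate 2, and in Smad3(RA/KP) cells from 40.6 to 15.7 and from 9.90 to 3.10 TPM. Untreated levels differed more between replicates than between forms, while in each replicate the treated level was higher in Smad3(RA/KP) cells. The log2 ratio was −2.86 (SE 0.23, limma adjusted p = 3.3e-04) in wild-type Smad3 against −1.36 with Smad3(RA/KP) (adjusted p = 0.0123). Its difference of 1.36 and 1.63 gave an estimate of 1.5 (interval 0.75 to 2.24, adjusted p = 0.881). The value was between 1.23 and 1.76 without any 1 library and was 1.33 with the GC trend removed. Over all alternatives other than left-out libraries it ran from 0.85 to 1.70. INHBB was also among the genes ranked by their smaller replicate difference, described further on. The range without any 1 library therefore does not test its stability. Of the other ligand genes, LTBP4, which holds latent TGF-β in the matrix, differed by 0.43 (interval −0.15 to 1.01), the proprotein convertase FURIN by −0.02 (−0.54 to 0.50), and GDF15 by 0.55 (−0.33 to 1.42). Without the divergent library and with the GC trend removed, in that order, LTBP4 had 0.18 and 0.02, FURIN −0.18 and −0.31, and GDF15 0.07 and 0.20. The integrin chain ITGAV, which takes part in activating latent TGF-β, differed by −0.77 (−1.43 to −0.11), with 19.8 to 57.0 and 29.6 to 78.1 TPM in the wild-type pairs against 19.8 to 41.6 and 35.1 to 42.6 TPM in the mutant pairs, and by −0.35 with the GC trend removed.

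Promoter windows are printed for 3 genes described here, to place the letters bound by Smad and AP-1 proteins beside the values: INHBB, for the difference above, OSGIN1, described further on, and ANGPTL4, the target gene with the largest response in both forms. Each is the RefSeq window of 250 bases before to 50 after the gene's start on GRCh38.p14, plus strand, and capitals mark GGCGCC in INHBB, TGANTCA in OSGIN1 and CAGAC (either strand) in ANGPTL4.
INHBB, chr2:120345886-120346185: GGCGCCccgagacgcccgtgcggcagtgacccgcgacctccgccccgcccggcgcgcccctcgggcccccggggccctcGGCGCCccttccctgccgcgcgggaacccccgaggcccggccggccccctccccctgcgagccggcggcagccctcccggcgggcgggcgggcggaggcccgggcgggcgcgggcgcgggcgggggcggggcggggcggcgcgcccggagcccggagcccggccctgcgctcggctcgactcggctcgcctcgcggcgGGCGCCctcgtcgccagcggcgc
OSGIN1, chr16:83952990-83953289: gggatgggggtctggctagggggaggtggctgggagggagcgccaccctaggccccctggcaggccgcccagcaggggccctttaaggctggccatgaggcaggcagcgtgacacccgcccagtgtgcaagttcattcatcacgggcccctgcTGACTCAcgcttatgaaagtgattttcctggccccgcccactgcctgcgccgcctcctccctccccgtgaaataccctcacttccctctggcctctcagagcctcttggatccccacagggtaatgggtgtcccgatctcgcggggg
ANGPTL4, chr19:8363905-8364204: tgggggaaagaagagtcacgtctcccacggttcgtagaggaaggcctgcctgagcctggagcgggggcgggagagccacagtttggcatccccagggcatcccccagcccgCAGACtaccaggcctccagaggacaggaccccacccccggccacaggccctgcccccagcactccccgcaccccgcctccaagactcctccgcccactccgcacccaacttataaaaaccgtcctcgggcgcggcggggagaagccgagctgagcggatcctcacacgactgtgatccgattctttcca

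GGCGCC, a GC-rich Smad-binding sequence that reads alike on both strands, occurred 3 times in the INHBB window and in 19.2% of 35116 promoter windows. The last of the 3 lay after the gene's start. The INHBB window had a GC content of 88.7%, so the share over all windows is not a like comparison for it. CAGAC, the core of the Smad-binding element, occurred once in the ANGPTL4 window, once in that of OSGIN1, not in that of INHBB, and in 45.3% of all windows. TGANTCA, bound by AP-1 dimers, occurred once in the OSGIN1 window and in 7.71% of all windows. These are matches of letters only.

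Receptors and Smads had 14 of 16 listed genes tested, and 0 passed in limma. At an unadjusted p under 0.05 there were 2 (14.3%), against 4.29% of all genes. The type I receptor gene TGFBR1 differed by −0.45 (interval −1.20 to 0.30), the type II receptor gene TGFBR2 by 0.05 (−0.64 to 0.73) and the co-receptor gene TGFBR3 by 0.29 (−0.62 to 1.20). TGFBR1 had 5.74 to 8.96 TPM in the untreated and 18.6 to 25.3 TPM in the treated libraries, with no overlap between the conditions. Its treated libraries had 24.7 and 25.3 TPM with wild-type Smad3 and 24.5 and 18.6 TPM with Smad3(RA/KP). The activin type II receptor gene ACVR2A was weakly expressed, going from 0.528 to 1.44 and from 0.611 to 1.39 TPM in wild-type Smad3 cells, and from 2.54 to 0.914 and from 1.79 to 0.461 TPM in Smad3(RA/KP) cells. It moved in opposite directions in the 2 forms in both replicates, by a difference of −1.53 (interval −2.46 to −0.60, limma adjusted p = 0.881). Over alternatives other than left-out libraries the difference of ACVR2A ran from −2.02 to −0.54. SMAD2 differed by −1.26 (−2.45 to −0.06), with 3.85 to 11.5 TPM in wild-type Smad3 cells and 4.07 to 11.3 TPM in Smad3(RA/KP) cells. The wild-type ratio of SMAD2 changed sign between replicates. SMAD1 differed by −0.70 (−1.52 to 0.11), SMAD4 by −0.45 (−1.33 to 0.43) and SMAD3 by 0.26 (−0.24 to 0.75). Without the divergent library and with the GC trend removed, SMAD4 had −0.04 and −0.19, SMAD1 −0.46 and −0.40, TGFBR1 −0.16 and −0.14, TGFBR2 0.22 and 0.26, and TGFBR3 0.41 and 0.53. The list median was 0.15 in replicate 1 and −0.82 in replicate 2, −0.0095 without the divergent library and −0.078 with the GC trend removed; its median GC content was 39.9%, against 48.9% over all genes tested.

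Of 20 feedback inhibitor genes, 7 passed as raised by TGF-β in wild-type Smad3 and 6 in Smad3(RA/KP) cells, where 2.94% and 3.49% of all genes did. In this list 0 passed for the difference in limma (1 at an unadjusted p under 0.05). On average 10 passed as raised, where 6.22% of all genes did. PMEPA1, which keeps Smads from the receptor, went from 139 to 411 and from 118 to 430 TPM in wild-type Smad3 cells, and from 149 to 435 and from 113 to 401 TPM in Smad3(RA/KP) cells. The ranges of the forms overlapped with and without TGF-β. Its difference was −0.02 in replicate 1 and −0.04 in replicate 2, with an interval of −0.55 to 0.49; it was −0.18 without the divergent library and −0.13 with the GC trend removed. LDLRAD4 (−0.09), the ubiquitin ligase gene SMURF2 (−0.24) and NEDD9 (−0.14) had intervals that included 0. In the same order of alternatives, LDLRAD4 had 0.10 and 0.05, SMURF2 −0.03 and 0.0041, and NEDD9 −0.24 and −0.05. SMAD6, an inhibitory Smad, went from 80.3 to 55.0 and from 50.0 to 32.6 TPM in wild-type Smad3 cells and from 77.4 to 70.2 and from 42.3 to 48.3 TPM in Smad3(RA/KP) cells. Its difference was 0.59 (interval 0.07 to 1.12), and 0.37 with the GC trend removed.

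Of 40 listed Smad3 targets, 35 were tested, 31 were raised on average and 0 passed for the difference (1 at an unadjusted p under 0.05). Of all genes, 6.22% were raised on average. The list was drawn up with earlier results of these data known. Their median log2 ratio was 1.54 in wild-type Smad3 and 1.62 in Smad3(RA/KP) cells. Differences were −0.12 for ANGPTL4 (interval −0.77 to 0.53), 0.26 for the collagen chain gene COL1A1 (−0.47 to 0.99) and −0.29 for the cytokine gene IL11 (−0.95 to 0.37). ANGPTL4, without the divergent library and with the GC trend removed, had −0.29 and −0.44, COL1A1 −0.12 and −0.03, and IL11 −0.27 and −0.45. For 22 of the 35 (62.9%) the whole interval lay between −1 and 1. The median of the gene-wise differences was −0.10 for the list, −0.03 in replicate 1 and −0.20 in replicate 2; 12 of 35 lay below in both replicates and 5 above in both, where 25.4% of all genes lay each way. The list median stayed below 0 in 20 of 20 alternative settings, at −0.16 both with the GC trend removed and without the divergent library. These settings share the same libraries, so a constant sign is no separate test. Other list medians also stayed below 0 in all 20, those of lamellipodium, G2 and M phase, cholesterol synthesis and heat shock genes among them. SERPINE2, a thrombin and plasminogen activator inhibitor gene, was the 1 target whose interval left out 0. It went from 83.8 to 173 and from 93.5 to 201 TPM in wild-type Smad3 cells and from 95.9 to 143 and from 138 to 157 TPM in Smad3(RA/KP) cells. The rise passed in wild-type Smad3 cells (1.07, limma adjusted p = 0.00652) and the difference of −0.69 (−1.20 to −0.17) did not (adjusted p = 0.881); it was −0.42 with the GC trend removed.

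**Figure D2:**
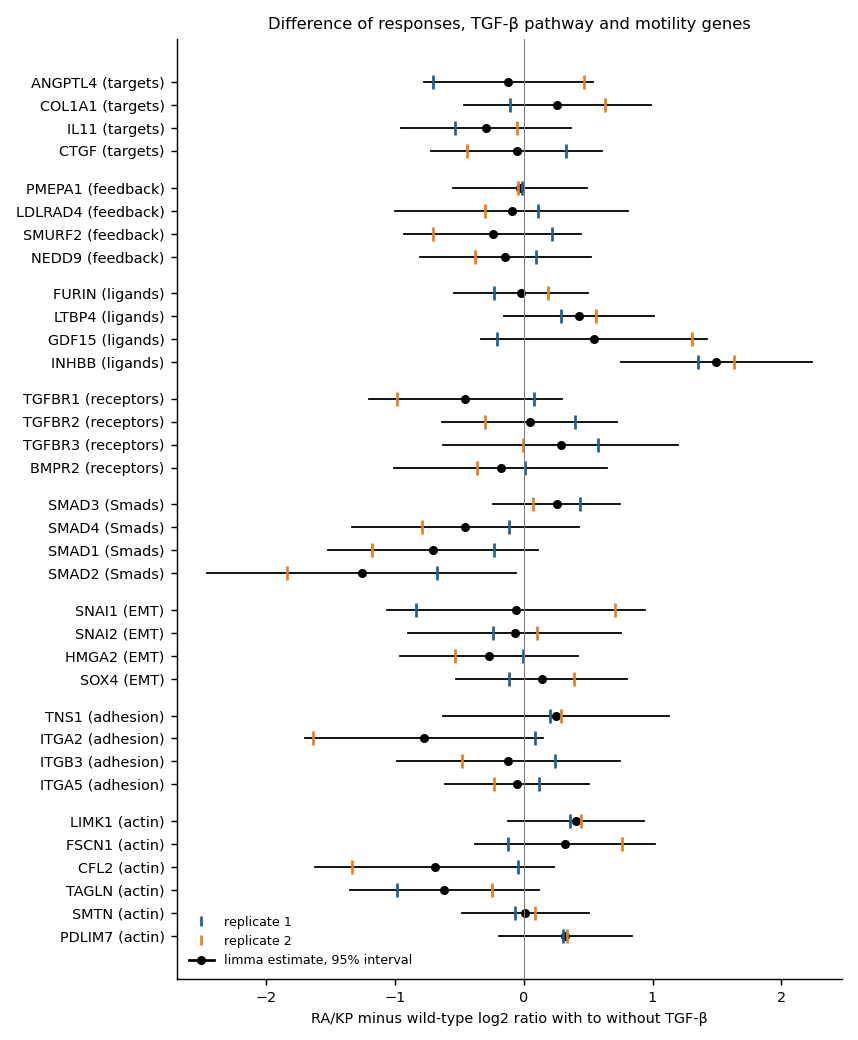
Difference of log2 ratios (horizontal axis, Smad3(RA/KP) minus wild-type Smad3) for genes of the TGF-β pathway and of cell motility. Black points are limma estimates with 95% intervals, and coloured ticks are the values of replicates 1 and 2; of the genes drawn, only the intervals of INHBB and SMAD2 leave out 0.

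Genes of epithelial-mesenchymal transition and matrix held no gene that passed. Of 17 transcription factor genes of the transition 0 passed for the difference in limma (1 at an unadjusted p under 0.05). On average 5 were raised, where 6.22% of all genes were. SNAI1 differed by −0.06 (interval −1.06 to 0.94), with −0.83 in replicate 1 and 0.71 in replicate 2, and SNAI2 by −0.07 (−0.89 to 0.76). HMGA2 differed by −0.27 (−0.96 to 0.42). Without the divergent library and with the GC trend removed, SNAI1 had −0.58 and −0.27, SNAI2 −0.11 and 0.18, and HMGA2 −0.06 and 0.04. The homeobox gene GSC, at 0 to 2.98 TPM, had a difference of −1.74 (−3.08 to −0.39). It ran from −2.39 to −0.59 over alternatives other than left-out libraries. Of 26 epithelial genes 0 passed (1 at an unadjusted p under 0.05); the epithelial transcription factor gene ELF3 differed by 0.62 (−0.11 to 1.35), the tight junction gene CLDN4 by −0.37 (−1.02 to 0.28) and E-cadherin, CDH1, by 0.31 (−0.77 to 1.40). CLDN4 had −0.23 and −0.56 under these alternatives, and CDH1 0.63 and 0.38. CLDN3, another tight junction gene, went from 5.33 to 1.79 and from 4.82 to 1.38 TPM in wild-type Smad3 cells, and from 4.87 to 3.78 and from 1.26 to 4.40 TPM in Smad3(RA/KP) cells. Its difference was 1.72 (0.54 to 2.90, limma adjusted p = 0.881), and 1.06 without the divergent library. Over alternatives other than left-out libraries it ran from 0.82 to 2.00.

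Of 24 collagen and crosslinking genes, 9 passed as raised in each form, where 2.94% (wild-type Smad3) and 3.49% (Smad3(RA/KP)) of all genes did. For the difference 0 passed in limma (2 at an unadjusted p under 0.05). COL5A1 differed by 0.12 (interval −0.48 to 0.71) and COL4A1 by −0.04 (−0.56 to 0.48). COL5A1, without the divergent library and with the GC trend removed, had −0.10 and −0.14, and COL4A1 −0.14 and −0.17. COL7A1, the anchoring fibril collagen gene, went from 94.6 to 169 and from 149 to 239 TPM in wild-type Smad3 cells, and from 99.0 to 284 and from 132 to 325 TPM in Smad3(RA/KP) cells. The treated Smad3(RA/KP) libraries were the 2 highest of the 8, and the difference was 0.64 (0.13 to 1.16, limma adjusted p = 0.881), or 0.28 with the GC trend removed. The metalloprotease gene ADAM19 rose in both forms, from 9.0 to 90.0 and from 12.7 to 101 TPM in wild-type Smad3 cells and from 15.3 to 87.1 and from 21.2 to 83.7 TPM in Smad3(RA/KP) cells. In each replicate the untreated level of ADAM19 was higher, and the treated level lower, in Smad3(RA/KP) cells. The log2 ratios were 3.04 (adjusted p = 9.4e-05) and 2.18 (adjusted p = 4.65e-04), with a difference of −0.86 (−1.47 to −0.25, adjusted p = 0.881) that was −0.95 with the GC trend removed.

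Genes of adhesion and actin were of interest because the study followed cell motility. Of 37 integrin and focal adhesion genes, 46 genes of the lamellipodium and 37 stress fibre genes, limma passed 0 for the difference (1, 2 and 0 at an unadjusted p under 0.05). Intervals lay wholly between −1 and 1 for 27 of 37 adhesion genes (73.0%), 28 of 37 stress fibre genes (75.7%), and for 23 of 46 lamellipodium genes (50%), against 44% of all genes. The fibronectin receptor chain ITGA5 differed by −0.05 (−0.61 to 0.50), the smooth muscle protein gene SMTN by 0.01 (−0.48 to 0.51) and PDLIM7 by 0.32 (−0.19 to 0.84). ITGA5, without the divergent library and with the GC trend removed, had −0.14 and −0.16, SMTN 0.03 and −0.22, and PDLIM7 0.17 and −0.03. ITGA2, a collagen receptor chain, differed by 0.09 in replicate 1 and −1.63 in replicate 2; it had 4.75 and 7.28 TPM in untreated and 23.1 and 48.6 TPM in treated wild-type Smad3 cells, and 4.43 and 14.7 against 23.2 and 29.2 TPM in Smad3(RA/KP) cells. The value for ITGA2 was −0.32 without the divergent library and −0.49 with the GC trend removed.

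Of the lamellipodium genes, 19 of 46 lay below in both replicates and 9 above in both, where 25.4% of all genes lay each way. The list median was −0.11, −0.016 without the divergent library and −0.070 with the GC trend removed. The cortactin gene CTTN, whose product binds branched actin, had 185 to 361 TPM in wild-type Smad3 cells with and without TGF-β, and went from 179 to 305 and from 338 to 473 TPM in Smad3(RA/KP) cells. Its difference was 0.54 (0.04 to 1.03), and that of EVL, an Ena/VASP protein gene, 0.53 (0.01 to 1.05); neither passed (limma adjusted p = 0.881). The cofilin kinase gene LIMK1 differed by 0.41 (−0.12 to 0.93) and the bundling protein gene FSCN1 by 0.32 (−0.37 to 1.02). FSCN1 had −0.05 without the divergent library and −0.04 with the GC trend removed.

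Beyond the lists, genes were ranked by the smaller of their differences in replicates 1 and 2, at a mean TPM of at least 5. This order selected genes whose replicates agreed, so that agreement was no separate test of a gene named from it. Of the 12 highest, 9 overlap another record on the same strand and 6 are snoRNA or miRNA records, and of the 12 lowest, 4 overlap another record, 3 are snoRNA or miRNA records and 1 is the mitochondrial tRNA record TRNA. Of the 9350 genes eligible, 1323 overlap another record and 141 are snoRNA, miRNA, tRNA or snRNA records. The readthrough records BLOC1S1-RDH5, TGIF2-C20orf24 and RBM14-RBM4 were each listed at 0 in 2 to 6 libraries. When each was summed with the genes it runs through, the differences went from 3.77 to 0.12 for BLOC1S1-RDH5, from −4.62 to −0.26 for TGIF2-C20orf24 and from −3.85 to −0.12 for RBM14-RBM4. Differences spread more widely over the 307 records of snoRNAs, miRNAs, tRNAs and snRNAs. Their SD was 1.64 in replicate 1 and 1.75 in replicate 2, against 0.45 and 0.66 over protein-coding genes. Of these records 57 (18.6%) had an unadjusted p under 0.05, against 3.59% of protein-coding genes. Their differences in the 2 replicates had a Pearson correlation of −0.17. Among SNORD records, 23 of 113 lay above and 35 below in both replicates, where 25.4% of all genes lay each way. Examples above 0 were SNORD83B (2.21 and 2.23), SNORD43 (1.72 and 2.11) and SNORD16 (1.61 and 1.57). Examples below 0 were SNORD52 (−1.12 and −2.20) and SNORD116-4 (−2.23 and −1.26). SNORD83B and SNORD43 overlap the record of RPL3, SNORD16 that of RPL4 and SNORD52 that of C6orf48. Among alternatives other than left-out libraries, the lowest values were 0.21 for SNORD83B, 0.21 for SNORD43 and −0.17 for SNORD16. The highest for SNORD52 among these alternatives was −0.22. The values of SNORD83B, SNORD43 and SNORD16 were those with overlapping records summed. They belong to the sums with RPL3 or RPL4 and not to the snoRNA records alone. None of the 307 passed in limma.

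Protein-coding genes of 1 record, overlapping no other record on the same strand, were then ranked in the same way, a restriction chosen after the values were seen. For these genes too, agreement between replicates followed from the ranking. Their intervals and their values without 1 library were therefore no separate test either. The 10 highest had a median GC content of 60.2% (37.1 to 70.0%) and the 10 lowest 41.0% (38.1 to 50.3%), against 49.5% over the 7349 genes eligible. None of the 20 passed for the difference (limma adjusted p = 0.763 to 0.881), and the part of GC content in their order was not tested beyond the values with the trend removed.

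In several of the highest genes TGF-β lowered expression in wild-type Smad3 cells and less so in Smad3(RA/KP) cells. ADM, the gene of the vasodilator peptide adrenomedullin, went from 117 to 47.1 and from 135 to 62.2 TPM in wild-type Smad3 cells, and from 118 to 97.1 and from 86.3 to 76.4 TPM in Smad3(RA/KP) cells. Both treated wild-type libraries were below the other 6. The fall passed in wild-type Smad3 cells (−1.20, limma adjusted p = 0.0174), the Smad3(RA/KP) ratio was −0.22 on the log2 scale (adjusted p = 0.582), and the difference was 0.97 (interval 0.26 to 1.69). NOXA1, an activator of NADPH oxidase, went from 16.8 to 3.04 and from 17.7 to 3.73 TPM with wild-type Smad3 and from 21.8 to 9.25 and from 11.2 to 11.4 TPM with Smad3(RA/KP), a difference of 1.49 (0.53 to 2.46). SH2D5, an adaptor protein gene, went from 10.1 to 1.91 and from 16.3 to 3.48 TPM against 9.09 to 4.14 and 12.4 to 7.53 TPM, a difference of 1.13 (0.44 to 1.83). In both genes the treated wild-type libraries were again the 2 lowest. With the GC trend removed the differences were 0.76 for ADM, 1.02 for NOXA1 and 0.84 for SH2D5, and NOXA1 had 0.95 without the divergent library.

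CISD2 and FIBP were set apart by other groups. CISD2, which encodes an iron-sulphur protein of the endoplasmic reticulum and mitochondrial outer membrane, had 27.1 and 30.1 TPM in untreated wild-type Smad3 cells and 9.44 to 17.0 TPM in the other 6 libraries. Its low GC content, 37.1%, is unlike that of the other high-ranking genes, and its difference of 1.22 (interval 0.50 to 1.95) was 1.57 with the GC trend removed. FIBP, an intracellular binding protein of acidic fibroblast growth factor, went down in wild-type Smad3 cells, from 188 to 124 and from 277 to 183 TPM, and up in Smad3(RA/KP) cells, from 192 to 244 and from 202 to 258 TPM. The difference for FIBP was 0.94 in each replicate (0.36 to 1.52), and 0.78 to 1.10 without any 1 library. FIBP was chosen by its smaller replicate difference, so these values do not test its stability.

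The lowest-ranking coding genes included some that went up on the wild-type side and some that went down on the mutant side. SLC16A1, the gene of the monocarboxylate transporter that carries lactate, went from 11 to 22.7 and from 9.60 to 22.1 TPM in wild-type Smad3 cells, and from 14.9 to 15.4 and from 14.4 to 12.4 TPM in Smad3(RA/KP) cells. Both treated wild-type libraries lay above the other 6, and both untreated ones below them. The rise passed in wild-type Smad3 cells (1.05, limma adjusted p = 0.0154), that of Smad3(RA/KP) cells was −0.07 (adjusted p = 0.849), and the difference was −1.12 (interval −1.73 to −0.51). It was −1.22 to −1.02 without any 1 library and −0.92 with the GC trend removed. SLC16A1 was chosen by its smaller replicate difference, so the range without any 1 library does not test its stability. C12orf5, whose product TIGAR lowers fructose-2,6-bisphosphate, went from 4.50 to 10.3 and from 4.71 to 10.8 TPM against 11.3 to 4.56 and 5.66 to 3.75 TPM, a difference of −1.86 (−2.76 to −0.96), up with wild-type Smad3 and down with Smad3(RA/KP). SKP2, the F-box protein that marks CDKN1B for degradation, went from 10.4 to 21.1 and from 10.6 to 15.6 TPM in wild-type Smad3 cells, and from 8.65 to 7.98 and from 16.2 to 7.95 TPM in Smad3(RA/KP) cells. Its difference of −1.26 became −0.77 without the divergent library.

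METTL6, a tRNA methyltransferase gene, went from 18.9 to 19.8 and from 21.2 to 25.2 TPM in wild-type Smad3 cells, and from 24 to 9.91 and from 28.9 to 13.4 TPM in Smad3(RA/KP) cells. The 2 treated Smad3(RA/KP) libraries were the lowest of the 8 and the 2 untreated ones were higher than their wild-type counterparts. METTL6 fell in Smad3(RA/KP) cells (−1.13, limma adjusted p = 0.00927), its log2 ratio in wild-type Smad3 cells was 0.15 (adjusted p = 0.788), and the difference was −1.28 (interval −1.86 to −0.70, adjusted p = 0.763). NSL1, a kinetochore subunit gene, also fell in Smad3(RA/KP) cells (−1.70, adjusted p = 0.00594), from 19.3 to 6.53 and from 13.1 to 2.60 TPM, against 16.6 to 16.2 and 12.6 to 7.01 TPM in wild-type Smad3 cells. ATG7, an enzyme of autophagy, differed by −1.0 (−1.70 to −0.30), up in both wild-type pairs and down in both mutant pairs. With the GC trend removed the differences were −1.01 for METTL6, −1.04 for NSL1 and −1.0 for ATG7.

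Genes of metabolism, stress and the cell cycle gave few differences. OSGIN1, a target of the oxidative stress factor NRF2, fell in both forms, from 101 to 22.0 and from 71.9 to 15.8 TPM in wild-type Smad3 cells and from 116 to 39.6 and from 45.3 to 29.3 TPM in Smad3(RA/KP) cells. Treated libraries did not overlap between the forms. The log2 ratios were −2.14 (limma adjusted p = 0.00148) and −1.07 (adjusted p = 0.0393), and the difference of 1.07 (interval 0.30 to 1.83, adjusted p = 0.881) was 0.63 without the divergent library. The other 27 NRF2 targets tested had intervals that included 0, HMOX1 at 0.14 (−0.36 to 0.64) among them, with 0.015 without the divergent library and −0.07 with the GC trend removed. PFKFB4, a regulator of glycolysis, rose in Smad3(RA/KP) cells (1.35, adjusted p = 0.00583), from 10.0 to 28.9 and from 9.42 to 24.1 TPM, against 12.6 to 16 and 10.1 to 16.8 TPM in wild-type Smad3 cells (0.50, adjusted p = 0.232). Its difference was 0.85 (0.22 to 1.48), and 0.89 without that library.

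Of 42 genes of the G2 and M phases, 0 passed for the difference in limma (3 at an unadjusted p under 0.05), and 20 lay below in both replicates against 3 above in both, where 25.4% of all genes lay each way. The list median was −0.33, with 0.07 in replicate 1 and −0.66 in replicate 2. The kinase gene AURKA fell in Smad3(RA/KP) cells, from 111 to 70.6 and from 92.5 to 48.3 TPM (−0.78, limma adjusted p = 0.0331), and went from 114 to 110 and from 85.8 to 67.3 TPM in wild-type Smad3 cells, a difference of −0.58 (interval −1.12 to −0.05). The checkpoint kinase gene BUB1 differed by −0.71 (−1.35 to −0.08) and the spindle protein gene NUSAP1 by −0.64 (−1.25 to −0.04), or −0.37 without the divergent library. Without that library the list median was −0.0033, and with the GC trend removed −0.095. Genes of this list had a median GC content of 42.2%. The 18 heat shock genes, of which 0 passed in limma and 0 had an unadjusted p under 0.05, had a median of −0.30, with 0.10 in replicate 1 and −0.77 in replicate 2. It was −0.042 without the divergent library and −0.10 with the GC trend removed. S phase genes had a median of −0.10 (0.23 in replicate 1 and −0.34 in replicate 2), which turned to 0.14 without the divergent library and was −0.040 with the GC trend removed. Cholesterol synthesis genes had −0.17, with −0.12 and −0.20 under these alternatives. The median of 75 ribosomal protein genes was 0.012, with −0.15 in replicate 1 and 0.21 in replicate 2, and it was 0.025 and 0.063 under them.

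**Figure D3:**
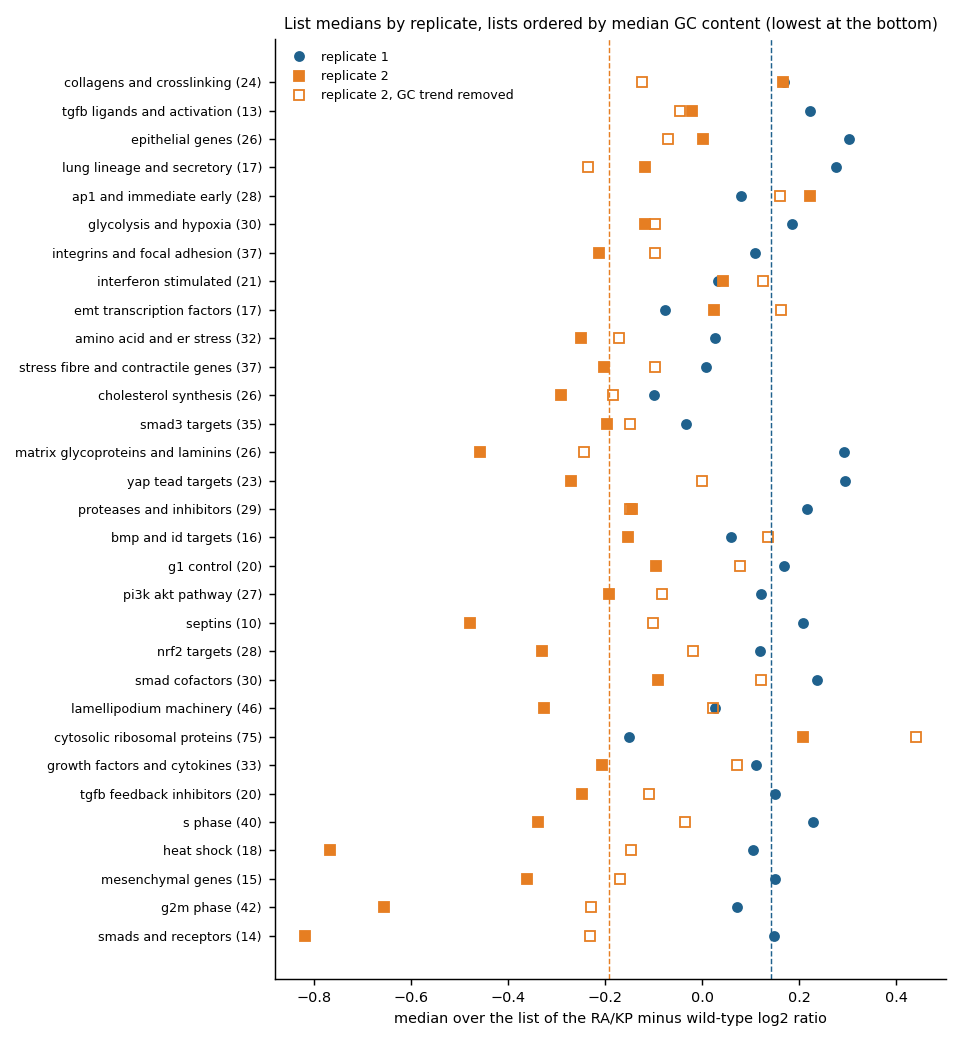
Median difference of log2 ratios (horizontal axis) over the tested genes of 31 of the 33 lists, with the number tested in parentheses, ordered by median GC content from lowest (bottom) to highest (top). Filled circles are replicate 1, filled squares replicate 2, open squares replicate 2 with the GC trend removed, and dashed lines the medians of all genes, 0.14 and −0.19; replicate 2 lies at −0.82 for the list at the bottom and 0.17 for the one at the top.

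Taking the 33 lists as a whole, 876 genes were tested and SEPT5 was the only member that passed. The interval left out 0 for 32 of them (3.65%), 20 above and 12 below 0, against 4.29% of all genes tested.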

How the data were processed

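RNA of 8 libraries (4 groups, 2 replicates each) was purified with RNeasy Plus, selected for poly(A) and sequenced from Ion Total RNA-Seq libraries. Submitters' processing notes name HISAT2 2.1.0, StringTie 2.0.4 and GRCh38; which annotation was used is not stated there or in the study's methods. The authors deposited, for each of 33122 records, base coverage, a signal from which mapped bases were recovered, FPKM, used as an alternative, and TPM, which they scaled to 1000000 per library. Intervals for counting error are not given, since read counts were not used. In each library, 36.6 to 39.0% of TPM lay in the top 100 genes.

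TPM of records with 1 symbol were summed. The filter was a mean TPM of 1 or more, and the test was made on log2(TPM + 1) with limma 3.58.1 in R 4.3.3, with group and replicate number as terms, empirical Bayes moderation with a trend, and Benjamini-Hochberg adjustment at 0.05 (3 residual and 5.90 prior degrees of freedom). Tables and figures were made with Python 3.11.15, pandas 2.3.3 and matplotlib 3.10.9, and the scripts were tested on simulated data. GC trends were removed per library by loess (span 0.5).

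Pairing by replicate number was assumed. Between groups, same-numbered libraries had correlated deviations (0.0484 to 0.332), least so the untreated with the treated Smad3(RA/KP) libraries. The members and lists were chosen with earlier results of these data known. Named were genes that passed, up to 12 genes per direction with 5 TPM or more on average and the same sign in both replicates, ranked by the smaller value, up to 4 genes per list with the largest average response, and Smads. Members of a list whose interval leaves out 0, and the ranked coding genes, were chosen after their values were seen. A total of 20 alternatives were run, on scaling, unit, pseudocount, filter, block, trend, GC content and left-out libraries. Summing overlapping records was chosen after seeing the data. Some genes and 2 lists are not reported here.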

Additional observations from a re-analysis of the deposited data

Results flagged for a closer look

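Responses in the 2 Smad3 forms differed by the test of the difference for 3 genes (limma adjusted p = 0.0257 each). The difference of log2 ratios was 4.04 for SEPT5, −3.88 for LOC102724049 and −4.35 for CTB-178M22.2, in the same direction in 2 of 2 replicates. Each gene was listed at 0 in both libraries of at least 1 group, so that these sizes depend on the pseudocount and are neither fold changes nor bounds. LOC102724049 and CTB-178M22.2 were the 2 genes of all tested that passed in opposite directions in the 2 forms. For LOC102724049 summed with SGMS2, the difference was −2.45 (interval −3.29 to −1.61, adjusted p = 0.174).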

How the results depend on the processing

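The 3 calls depended on the processing. There were 0 in limma with a pseudocount of 5 (569 genes at an unadjusted p under 0.05), with no filter on low values (861), with a replicate block within each Smad3 form (488) and with the GC trend removed in the fit with the replicate block (590). There was 1 at 5 TPM or more on average, and 1 with overlapping records summed, an alternative chosen after seeing the data. With no replicate block, that is without the pairing, 2 genes passed (332 at an unadjusted p under 0.05); with no mean-variance trend 2 passed, with FPKM 3, and with median-ratio scaling or quantile normalization 4, MSH5 being added.

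Without 1 library, 0 to 8 genes passed. The count was 0 without replicate 1 of untreated wild-type Smad3 (430 at an unadjusted p under 0.05), treated wild-type Smad3 (231) or treated Smad3(RA/KP) (785), and without replicate 2 of treated wild-type Smad3 (461) or treated Smad3(RA/KP) (460). It was 6 without untreated Smad3(RA/KP) replicate 1, 2 of them shared with the 3, and 8 without untreated wild-type Smad3 replicate 2, 3 of them shared. Without untreated Smad3(RA/KP) replicate 2, 3 genes passed and 0 were shared.

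The median difference over raised genes, 0.057, was −0.072 with the GC trend removed and −0.0061 to 0.12 without 1 library. Over lowered genes, 0.043, it was −0.076 to 0.16 without 1 library. A named gene counted as reversed only where an interval left out 0; with overlapping records summed, SNORD16 had −0.17 and SEPT5-GP1BB 1.14. The depth behind single genes is unknown, which limits weakly expressed ones.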

Other observations

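Some genes of the lists had intervals that left out 0 and have not been described, and none of them passed (limma adjusted p over all genes). They were chosen after their values were seen. Above 0 were the elastin gene ELN (1.06, interval 0.11 to 2.00), the laminin chain gene LAMA5 (0.61, 0.06 to 1.15), the macrophage colony-stimulating factor gene CSF1 (0.71, 0.05 to 1.36), the DNA ligase gene LIG1 (0.97, 0.21 to 1.74) and the lung aspartic protease gene NAPSA (1.03, 0.01 to 2.05). Below 0 were the septin gene SEPT10 (−0.68, −1.32 to −0.04) and P4HA1 (−0.82, −1.62 to −0.03), which encodes a subunit of the enzyme that hydroxylates collagen prolines. With the GC trend removed, LAMA5 had 0.21, SEPT10 −0.41, and ELN, LIG1 and NAPSA 0.78, 0.81 and 0.90. P4HA1 had −0.52 without the divergent library.

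Of 75 cytosolic ribosomal protein genes, 3 (4%) had an interval that left out 0, a share near the 4.29% of all genes tested. These were RPL35 (0.85, or 0.51 with the GC trend removed), RPS21 (0.77, or 0.62) and RPS28 (0.82, or 0.58).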
